A study of Mus musculus with 468 samples.

Results

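De novo fatty acid synthesis, the making of fatty acids from sugar carbon, was described in adipose tissue through 10 genes taken by symbol from the deposited count table: Acly, Acaca, Acacb, Fasn, Scd1, Scd2, Elovl5, Elovl6, Me1 and Thrsp. All 10 were among the 23180 genes of the table, and all 10 were among the 18380 genes that passed a filter on low counts (10 counts or more in at least 0.5 of all libraries). The tissue came from Diversity Outbred (DO) mice, animals of a stock in which the genomes of inbred founder strains are shuffled so that mice differ from one another in genotype. Every mouse had eaten a high-fat, high-sugar diet with 45% fat, and no mouse on another diet was analysed here. The methods of the study place the tissue in the gonadal fat pad, a visceral depot, and describe animals of both sexes, whereas the labels give tissue and diet and neither sex nor batch. Each mouse gave 1 library, so all libraries formed a single group, an SD below is over mice, and the error of the assay cannot be split from the differences between animals.

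Adipocytes and hepatocytes build fatty acids from acetyl-CoA that is released from citrate in the cytosol. Acetyl-CoA carboxylase makes malonyl-CoA, fatty acid synthase joins these units into palmitate at the cost of NADPH, and elongases and desaturases then lengthen the chain and add double bonds. The genes of this route are known targets of SREBP1, the product of Srebf1, which responds to insulin and sterols, and of ChREBP, the product of Mlxipl, which responds to sugar metabolites. Both factors are also regulated as proteins, which transcript counts do not show, and counts per gene do not separate the alternative isoforms of either one.

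Total expected counts per library, divided by 1e+06, ran from 35.3 to 137.8 with a median of 82.04, and the member of lowest level in any library, Elovl6, still had 13.2 CPM there. Values are CPM, counts per 1e+06 counts of the library after TMM scaling, or log2 CPM with a prior count of 2. No pair of libraries held identical values, and the highest correlation between libraries over genes was 0.963. All 11 adipocyte markers looked for were present, with a summed level of 11520 to 60370.0 CPM (median 40435). The 4 Y chromosome genes Ddx3y, Eif2s3y, Kdm5d and Uty were without counts in 48.5% of the libraries and had them in the other 51.5%. Many relations are therefore also given inside these clusters, and a value with no cluster named is over all libraries. Libraries that stood apart were those of mice DO153 and DO347, which had neither Y chromosome counts nor Xist at the usual level, those of DO360 and DO405, in which 1 gene, CT010467.1, took 19.2% of the counts or more, and that of DO283, in which the 10 members were lowest on average.

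RefSeq promoter windows on GRCm38.p6 were found for 8 of the members and both factors, 14 windows in all, with no entry for Scd1 or Scd2. The 4 motifs looked for on both strands in the 250 bases before each start were the E-box CACGTG, the sterol element core TCACNCCAC, the CCAAT box CCAAT and the GC box GGGCGG. Over 32851 windows of this length, 6.02% held the E-box, 1.05% the sterol element core, 33.8% the CCAAT box and 32.7% the GC box. The windows of 3 members and of the upstream start of Mlxipl are shown because Fasn and Acly, whose levels had an r of 0.94 over mice, shared none of the 4 motifs, and because Elovl5 and Mlxipl were the genes of the set with an E-box. Capitals mark the motif matches, where a match on the other strand reads as the reverse complement, and each sequence runs 5′ to 3′ on the strand of its gene.
Fasn, chr11:120824548-120824797, minus strand: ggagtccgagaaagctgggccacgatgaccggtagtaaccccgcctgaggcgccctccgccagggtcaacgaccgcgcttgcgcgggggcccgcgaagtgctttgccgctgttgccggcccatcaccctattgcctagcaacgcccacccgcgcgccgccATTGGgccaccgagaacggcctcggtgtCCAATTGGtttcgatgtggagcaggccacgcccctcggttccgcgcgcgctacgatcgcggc
Acly, chr11:100528001-100528250, minus strand: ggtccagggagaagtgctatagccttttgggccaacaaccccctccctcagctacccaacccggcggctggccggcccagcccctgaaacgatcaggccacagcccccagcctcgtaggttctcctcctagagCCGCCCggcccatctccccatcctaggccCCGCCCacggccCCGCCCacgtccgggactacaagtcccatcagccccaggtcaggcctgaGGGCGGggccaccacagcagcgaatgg
Elovl5, chr9:77917115-77917364, plus strand: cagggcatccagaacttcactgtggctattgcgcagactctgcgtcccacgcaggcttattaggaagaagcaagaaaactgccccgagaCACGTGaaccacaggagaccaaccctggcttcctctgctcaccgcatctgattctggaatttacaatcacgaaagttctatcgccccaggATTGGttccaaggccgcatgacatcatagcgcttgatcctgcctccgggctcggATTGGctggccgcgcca
Mlxipl, chr5:135089640-135089889, plus strand: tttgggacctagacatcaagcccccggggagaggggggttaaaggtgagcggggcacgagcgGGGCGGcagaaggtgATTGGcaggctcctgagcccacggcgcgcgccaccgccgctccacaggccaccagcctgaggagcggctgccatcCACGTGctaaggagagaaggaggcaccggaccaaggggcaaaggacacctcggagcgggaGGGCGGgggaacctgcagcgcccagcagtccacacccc
The Fasn window held 3 CCAAT boxes, which begin at bases -90, -62 and -59 from the start, the last 2 overlapping on opposite strands, and none of the other motifs. The Acly window held 4 GC boxes, at -117, -88, -76 and -27, and no CCAAT box. In Elovl5 the E-box began at -161 and CCAAT boxes at -71 and -17. The upstream start of Mlxipl had an E-box at -98, a CCAAT box at -173 and GC boxes at -188 and -38, while its downstream start had the 1 sterol element core of the set, at -136. The windows of Acaca and Elovl6 held none of the 4 motifs. For Acaca and Acacb the only window lay inside the gene. The Acaca window began at base 84195188, downstream of the gene start at 84129672, and the Acacb window at 114165268, downstream of 114146535. The bases before those gene starts were not examined. A match is a description of the letters in a window and not a measured binding site.

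Acly and Me1 feed the route. Acly (ENSMUSG00000020917, chromosome 11, 100476353 to 100528000) encodes ATP citrate lyase, which releases acetyl-CoA from citrate. Gene positions here are on GRCm38, as GENCODE M21 gives them. The level of Acly was 189.3 CPM in the lowest library, 692.1 CPM in the median library and 8722 CPM in the highest (mean 1279.9 ± 1359, SD over all mice). Me1 (ENSMUSG00000032418, chromosome 9, 86581371 to 86695953) encodes cytosolic malic enzyme, a source of NADPH. It ran from 231.9 CPM through a median of 772 CPM to 4392 CPM (mean 955 ± 652.4). The highest library of both genes was that of mouse DO237. Acly thus spanned 46.1-fold over mice and Me1 18.9-fold.

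The carboxylases and the synthase made up the middle of the route. Acaca (ENSMUSG00000020532, chromosome 11, 84129672 to 84401651) encodes the cytosolic acetyl-CoA carboxylase and ran from 209.1 CPM through 1010.0 CPM to 11041 CPM (mean 1755 ± 1707). Acacb (ENSMUSG00000042010, chromosome 5, 114146535 to 114250761) encodes the form at the outer mitochondrial membrane, whose malonyl-CoA restrains fatty acid oxidation. Its level ran from 67.3 CPM through 451.8 CPM to 4170.3 CPM (mean 723 ± 665.6). Per kilobase of the longest coding transcript, Acaca was higher than Acacb in 97.01% of libraries, with a median ratio of 2.09 and a range of 0.520 to 7.18. Fasn (ENSMUSG00000025153, chromosome 11, 120805846 to 120824547) encodes fatty acid synthase and ran from 1524 CPM through 6767 CPM to 61664 CPM (mean 10468 ± 8971). Mouse DO237 again held the highest level of Acaca and Fasn, and the library next below it in Fasn had 45474 CPM.

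Thrsp (ENSMUSG00000035686, chromosome 7, 97412938 to 97417730) encodes a small nuclear and cytosolic protein, also called Spot 14, whose transcript follows lipogenesis. It spanned 169.4-fold, from 27.6 CPM in mouse DO193 through a median of 407.8 CPM to 4675 CPM in mouse DO222 (mean 602.3 ± 559.2). Mouse DO222 also had the highest level of both transcription factors.

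The elongases differed from each other in spread. Elovl6 (ENSMUSG00000041220, chromosome 3, 129532355 to 129638495) lengthens the saturated chains that fatty acid synthase releases. It ran from 13.2 CPM in mouse DO189 through 124.9 CPM to 4087 CPM in mouse DO326, a span of 309.4-fold (mean 284.3 ± 424.5). Elovl5 (ENSMUSG00000032349, chromosome 9, 77917364 to 77984519) lengthens polyunsaturated chains, and it spanned 6.96-fold, from 73.1 CPM through 138.4 CPM to 509.2 CPM (mean 150.4 ± 46.6). Elovl5 was above Elovl6 per kilobase of coding transcript in 74.1% of libraries. The SD of log2 CPM of Elovl6, 1.63, was above that of 98.3% of the 9508 genes averaging 10 CPM or more, and the SD of Elovl5, 0.36, was above that of 65.9%. The SDs of Acaca (1.26), Acly (1.19), Thrsp (1.19), Acacb (1.15) and Fasn (1.08) were above those of 96.6 to 97.5% of genes.

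The desaturases act on the finished chain. Scd1 (ENSMUSG00000037071, chromosome 19, 44394455 to 44407879) encodes the main stearoyl-CoA desaturase of adipose tissue, which makes monounsaturated fatty acids. It ran from 16952 CPM in mouse DO283 through 81243 CPM to 140900 CPM in mouse DO293 (mean 80331 ± 22210.3) and took 7.93% of all counts on average. Scd2 (ENSMUSG00000025203, chromosome 19, 44293674 to 44306864) lies next to Scd1 in a cluster of related genes, among which reads can be shared by the counting method. Its level ran from 97.5 CPM in mouse DO168 through 1420.2 CPM to 4304 CPM in mouse DO183 (mean 1489 ± 747). Scd1 was above Scd2 per kilobase in every library, with a median ratio of 63.98 and a range of 18.2 to 1053. The 10 members together took between 2.45% and 15.5% of the counts of a library (median 9.83%).

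**Figure D1:**
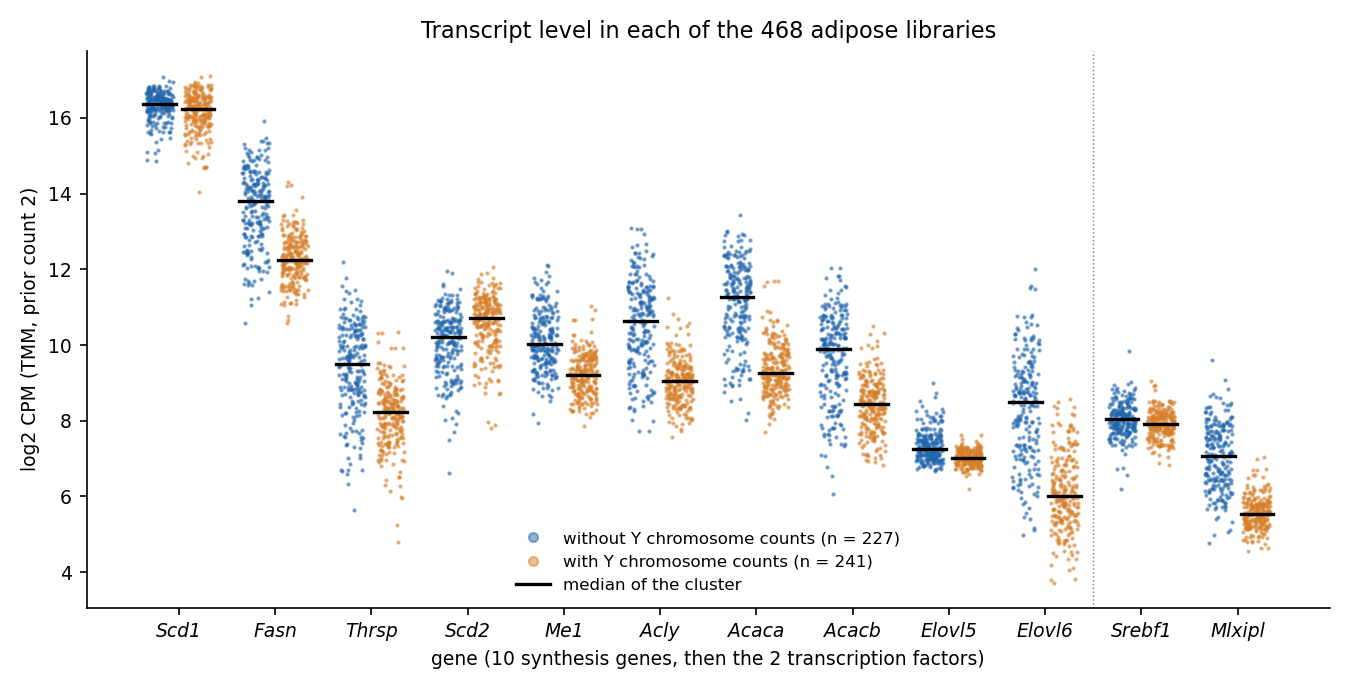
Each point is 1 library, placed by the gene on the horizontal axis and its log2 CPM on the vertical axis, with libraries without Y chromosome counts (48.5% of all) in blue, those with such counts (51.5%) in orange and a black bar at the median of each cluster. Scd1 lies above all other genes in every library, Elovl6 has the widest spread, and the median of Scd2 is the one that lies higher in the orange cluster.

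On a scale of CPM per kilobase of the longest coding transcript, the medians fell in the order Scd1 (16814), Fasn (673.3), Thrsp (319.3), Scd2 (260.3), Me1 (234.6), Acly (156.4), Acaca (106.2), Acacb (51.4), Elovl5 (49.8) and Elovl6 (20.98). Scd1 exceeded Fasn by 4.35 ± 0.95 on the log2 scale (mean and SD of the ratio over mice), and the order held in every library. Fasn exceeded Thrsp by 1.21 ± 0.62 and Acaca exceeded Acacb by 1.07 ± 0.61, so these steps were larger than the spread over mice. The step from Acly to Acaca, 0.67 ± 0.54, was also larger than its SD. The other neighbours in the order did not differ beyond their spread, since the mean ratio was below its SD for Thrsp and Scd2, Scd2 and Me1, Me1 and Acly, Acacb and Elovl5, and Elovl5 and Elovl6. With the length of all annotated exons in place of the coding transcript, Thrsp had rank 5 and the order of the other members was kept.

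The clusters of libraries differed in level, which is given here as a description. The median of Acaca was 2487 CPM in libraries without Y chromosome counts and 610.4 CPM in those with them, and that of Fasn was 14223 and 4887 CPM. Elovl6 had medians of 362.5 and 64.8 CPM, and Mlxipl, the gene of ChREBP, had 133.7 and 46.6 CPM. Scd2 went the other way, with 1192 CPM without and 1687 CPM with Y chromosome counts. Srebf1 and Scd1 had medians that lay close together, at 262.7 and 241.4 CPM for Srebf1 and at 84826 and 77014 CPM for Scd1. The ranges of the clusters overlapped for every member. Spread differed as well: the SD of log2 CPM was larger without Y chromosome counts for 9 of the 10 members and for both factors (0.86 against 0.42 for Mlxipl, 1.39 against 0.99 for Elovl6), and Scd1 was the exception (0.37 against 0.52).

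The first comparison asked which members vary together among mice. Pearson's r of log2 CPM was computed for all 45 pairs, with two-sided permutation tests of 100000 resamples whose smallest p is 1e-05, adjusted over the 45 pairs by the method of Benjamini and Hochberg. In the libraries without Y chromosome counts 42 pairs had a positive r and 0 a negative r past an adjusted p of 0.05. In the libraries with Y chromosome counts 37 were positive and 1 was negative. Over all libraries 39 were positive and 2 were negative. The share of all gene pairs that pass this test was not computed, and over all libraries an r as small as 0.11 passed (Scd1 and Scd2). The median r of the 45 pairs was 0.69 without Y chromosome counts, 0.38 with them and 0.68 over all libraries. Over all pairs of the 9508 genes averaging 10 CPM or more the median r was 0.0079 and 5.03% of pairs had an r above 0.5, a value that 30 of the 45 member pairs passed. Spearman's rho differed from r by at most 0.14 in any of the 65 relations computed over all libraries, and leaving out the 2 libraries farthest from the median changed r by at most 0.032.

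Over all libraries the 5 pairs of highest r lay among Acly, Me1, Acaca and Fasn. Fasn and Acaca had an r of 0.98 in libraries without Y chromosome counts and of 0.78 in those with them (0.95 over all libraries, rho 0.92, adjusted permutation p = 1.22e-05). Fasn and Acly had 0.94 and 0.83 (0.94 over all), and Fasn and Me1 had 0.88 and 0.80 (0.90 over all). Acly and Me1, the suppliers of acetyl-CoA and NADPH, had 0.90 and 0.80 (0.91 over all). In the 5 blocks of consecutive library numbers and the 5 of mouse numbers, r of Fasn and Acaca lay between 0.94 and 0.96 and that of Fasn and Acly between 0.92 and 0.97.

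Thrsp, Acacb and Elovl6 were tied to this core in one cluster more than in the other. Fasn and Thrsp had an r of 0.93 without and 0.51 with Y chromosome counts, Fasn and Acacb 0.85 and 0.47, and Fasn and Elovl6 0.88 and 0.50. Between themselves they were not alike in this. Acacb and Elovl6 had an r of 0.77 without Y chromosome counts and of -0.11 with them, and Elovl6 and Thrsp had 0.81 and -0.012, whereas Acacb and Thrsp had 0.81 and 0.66. Acaca and Acacb, which encode both forms of the carboxylase, had 0.87 and 0.73. The elongases Elovl5 and Elovl6 had 0.65 and 0.13. The difference in r between the clusters was tested by permuting the cluster labels over values standardised inside each cluster, adjusted over 65 differences. It passed in 38 of the 45 pairs, and in 32 of these r was higher in the libraries without Y chromosome counts. The smaller spread of most members in the other cluster goes with this, and its part in the difference was not tested. The share of all gene pairs that pass this test was not computed, so the count of 38 cannot be called particular to the members.

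**Figure D2:**
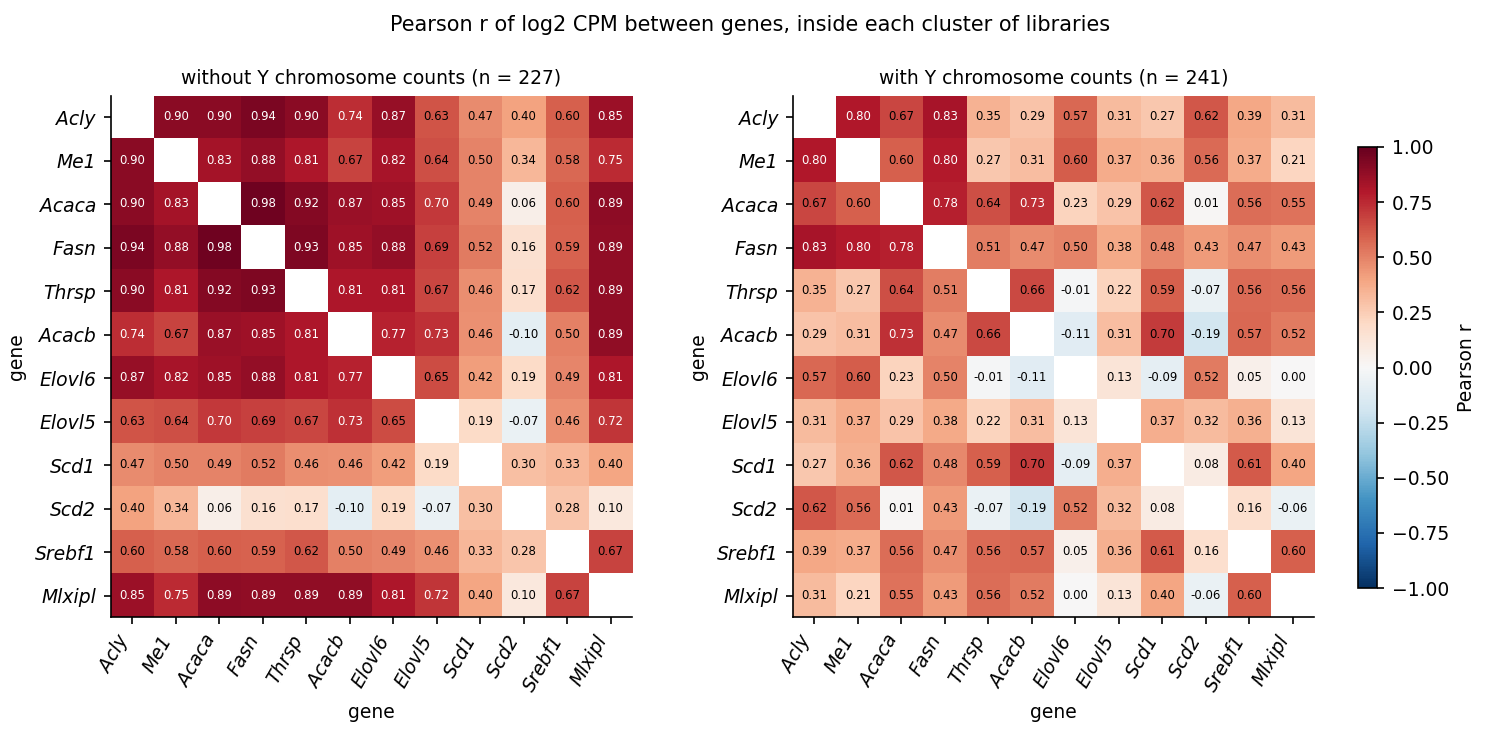
Each cell gives Pearson's r of log2 CPM for the genes of its row and column, in libraries without Y chromosome counts on the left and in those with them on the right, on a colour scale from -1 (blue) to 1 (red). The block of Acly, Me1, Acaca and Fasn is red in both maps, while Elovl6 has an r of 0.77 with Acacb on the left and -0.11 on the right.

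Scd1, the most abundant member, followed the others loosely. Its r with Fasn was 0.52 without and 0.48 with Y chromosome counts, with no difference past the threshold (difference 0.040, adjusted p = 0.60). With Acacb it was 0.46 and 0.70, a difference of -0.24 (adjusted p = 0.00043), and with Elovl6 it was 0.42 and -0.089. The summed adipocyte markers had an r of 0.75 with Scd1 over all libraries. With an adipocyte score held constant, r of Scd1 and Fasn went from 0.47 to 0.23, and with library totals left without TMM scaling it was 0.23 as well. In bulk tissue, fewer adipocytes and less transcript per adipocyte cannot be told apart.

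Scd2 stood apart from the core over all libraries and less so inside the clusters. Over all libraries its r with Fasn was 0.0067 (adjusted p = 0.89), with Acly 0.15 and with Me1 0.17. Inside the clusters these were 0.16 and 0.43 with Fasn, 0.40 and 0.62 with Acly, and 0.34 and 0.56 with Me1, in each case first without and then with Y chromosome counts. The cluster with the higher median of Scd2 was the one with the lower medians of the other members. With Acaca the r was 0.056 and 0.014, and with Acacb -0.095 and -0.19. The negative pairs past the threshold over all libraries were Scd2 with Acaca (-0.18) and Scd2 with Acacb (-0.26). Scd1 and Scd2, neighbours on chromosome 19, had an r of 0.30 and 0.082 inside the clusters and of 0.11 over all libraries (adjusted p = 0.023), a call that was lost in the cluster with Y chromosome counts, without TMM scaling (0.085), without the tenth of libraries of lowest total (0.075) and in most blocks of library or mouse number. With a score held constant it was larger, at 0.50 given the adipocyte markers, 0.36 given the macrophage markers and 0.20 given the thermogenic markers, each past the threshold.

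Scd2 varied with genes of cholesterol synthesis. Of the 18 cholesterol genes looked for, 15 had an r above 0.5 with Scd2 over all libraries, as did 4.80% of all genes. The median r of the 18 was 0.64 (0.69 without and 0.73 with Y chromosome counts), against a median of 0.011 over all genes. The closest gene outside the members was Mvk, mevalonate kinase, with an r of 0.83 (0.84 and 0.81 inside the clusters). For Scd1 the median r with the same 18 genes was 0.084 and for Fasn 0.33. For Me1 and Acly the medians were 0.46 and 0.45. Acaca and Acacb had medians of 0.17 and 0.065 over all libraries and of -0.082 and -0.25 in the libraries with Y chromosome counts.

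The second comparison asked how the members relate to Srebf1 and Mlxipl. Srebf1 (ENSMUSG00000020538, chromosome 11, 60199089 to 60222581) ran from 73.8 CPM through 251.2 CPM to 911 CPM (mean 260.9 ± 78.0035). Mlxipl (ENSMUSG00000005373, chromosome 5, 135089890 to 135138382) ran from 23.7 CPM through 62.9 CPM to 776 CPM (mean 101.7 ± 87.8). The factors had an r of 0.54 with each other over all libraries, 0.67 without and 0.60 with Y chromosome counts. Reads of Srebf1 could be shared with Rai1, which overlaps it in the annotation, and with the small genes Mir6921 and Mir6922.

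In the libraries without Y chromosome counts, Mlxipl was the closer of the factors for most members. Its r was 0.89 with Fasn, Acaca, Acacb and Thrsp, 0.85 with Acly, 0.81 with Elovl6, 0.75 with Me1 and 0.72 with Elovl5. For Srebf1 the r in the same libraries was 0.59 with Fasn, 0.60 with Acaca and Acly, 0.62 with Thrsp, 0.58 with Me1, 0.50 with Acacb, 0.49 with Elovl6 and 0.46 with Elovl5. In a test that swaps the standardised values of the factors within mice, r was higher with Mlxipl for 8 members and higher with Srebf1 for Scd2 alone (0.28 against 0.10, adjusted p = 0.0044). Scd1 had 0.33 with Srebf1 and 0.40 with Mlxipl, a difference of -0.069 that did not pass (adjusted p = 0.18).

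In the libraries with Y chromosome counts the order was not the same. There r with Mlxipl was 0.56 for Thrsp, 0.55 for Acaca, 0.52 for Acacb, 0.43 for Fasn, 0.31 for Acly, 0.21 for Me1, 0.13 for Elovl5 and 0.00049 for Elovl6. With Srebf1 it was 0.56 for Thrsp and Acaca, 0.57 for Acacb, 0.47 for Fasn, 0.39 for Acly, 0.37 for Me1, 0.36 for Elovl5 and 0.051 for Elovl6. No member had a higher r with Mlxipl by the swap test, and 4 members had a higher r with Srebf1, namely Scd1 (0.61 against 0.40), Scd2 (0.16 against -0.063), Elovl5 (0.36 against 0.13) and Me1 (0.37 against 0.21). For Fasn the factors differed by 0.039 in this cluster (adjusted p = 0.50), so neither could be named the closer one.

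Over all libraries, 10 of 10 members had a positive r with Srebf1 past the threshold and 9 of 10 with Mlxipl. Scd2 had a negative r with Mlxipl past it. In the edgeR fits given below, 29.3% of all genes were higher with Srebf1, and 37.4% were higher and 44% lower with Mlxipl. The r of the members with Srebf1 ran from 0.17 (Scd2) to 0.59 (Thrsp) and that with Mlxipl from -0.19 (Scd2) to 0.90 (Acaca). By the swap test r was higher with Mlxipl for 8 members and higher with Srebf1 for Scd1 and Scd2. The medians of Mlxipl and of 9 members were higher in the same cluster of libraries. Given Mlxipl, r of Srebf1 with Fasn was 0.12 and with Scd1 0.36, and with Elovl6 it turned to -0.16. Given Srebf1, r of Mlxipl was 0.82 with Fasn and 0.15 with Scd1.

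**Figure D3:**
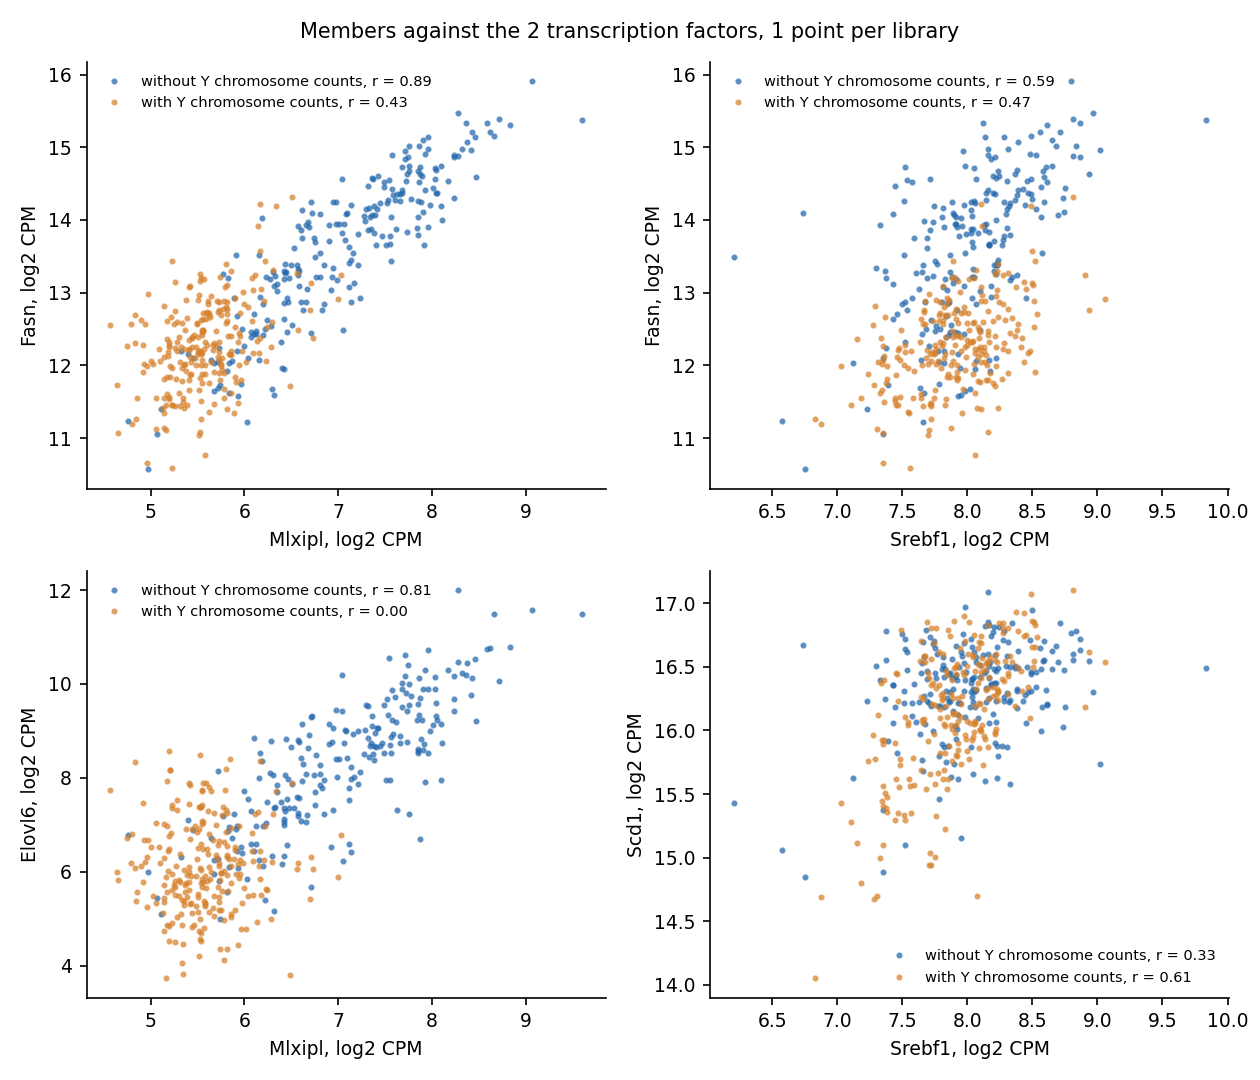
Each point is 1 library, with the log2 CPM of a transcription factor on the horizontal axis and that of a member on the vertical axis, for Fasn against Mlxipl and Srebf1, Elovl6 against Mlxipl, and Scd1 against Srebf1. The blue points (no Y chromosome counts) of Elovl6 rise along Mlxipl with an r of 0.81, while the orange points (Y chromosome counts) show an r of 0.00049.

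**Figure D4:**
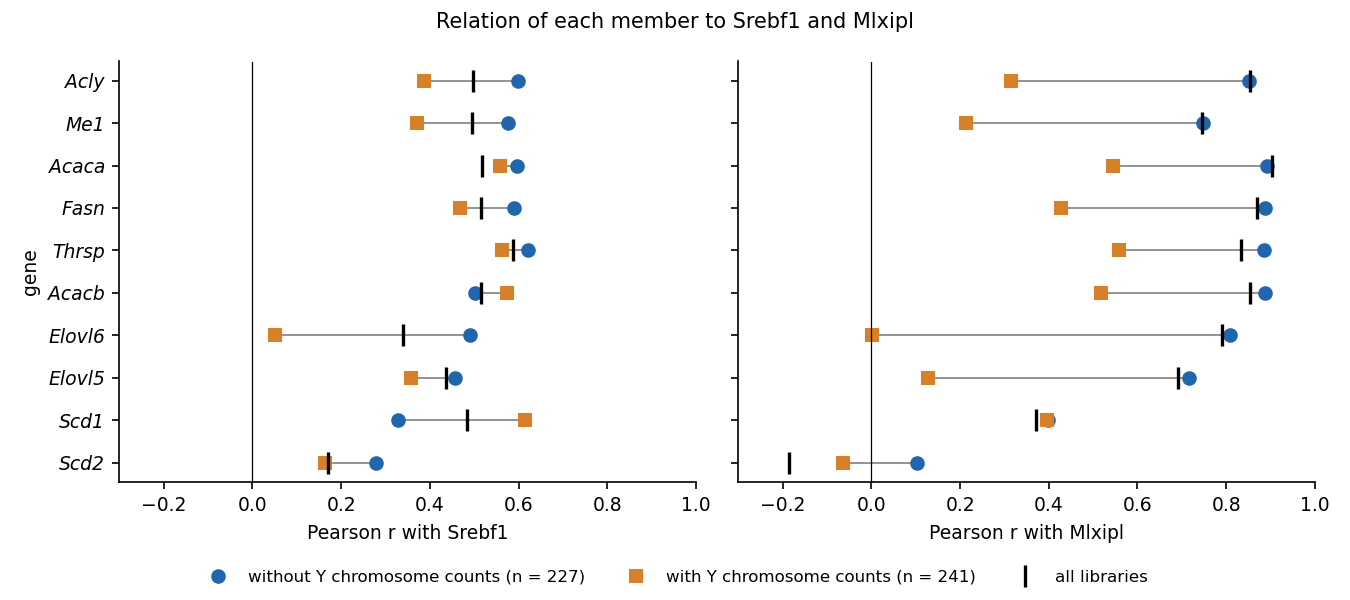
Pearson's r of each member with Srebf1 (left) and Mlxipl (right), in libraries without Y chromosome counts (blue circles), with them (orange squares) and in all of them (black bars). For Mlxipl the circles of 8 members lie between 0.72 and 0.89 and their squares between 0.00049 and 0.56.

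The same relations were fitted across all genes with the quasi-likelihood test of edgeR. Slopes are in log2 units per SD of the log2 CPM of the factor, and p-values were adjusted by the Benjamini-Hochberg method over 18379 genes. Inside a cluster the SD is that of the cluster, for Mlxipl 0.86 without and 0.42 with Y chromosome counts, and for Srebf1 0.44 and 0.36. Slopes of the clusters are thus in different units, so a gap between them is not a gap per log2 unit of the factor. Associations were widespread, so a call by itself says little about a member. Per SD of Srebf1, 29.3% of all genes were higher and 41% lower, and 10 of 10 members were higher. Inside the clusters 25.9% of genes were higher and 35% lower without Y chromosome counts, where 10 members were higher, and 23.6% were higher and 32% lower with them, where 9 members were higher. Per SD of Mlxipl, 37.4% of all genes were higher and 44% lower, and 9 members were higher and 1, Scd2, was lower. Inside the clusters the shares were 32.1% and 40.4% without Y chromosome counts, where 9 members were higher and 0 lower, and 22.7% and 29.1% with them, where 7 were higher and 0 lower.

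The size of the slopes set the members apart more than the calls did. The median slope of the members on Srebf1 was 0.49 over all libraries (0.46 without and 0.28 with Y chromosome counts), against -0.017 for all genes. On Mlxipl it was 0.93 (0.92 and 0.20), against -0.014. Each slope is per SD of the factor in its own libraries, and that SD was smaller with Y chromosome counts for both factors. Elovl6 had a slope on Mlxipl of 1.11 ± 0.05 (SE) in the libraries without Y chromosome counts (adjusted p = 1.65e-53) and of -0.02 ± 0.06 in those with them (adjusted p = 0.81). Fasn had 0.89 ± 0.03 (adjusted p = 1.09e-70) and 0.28 ± 0.04 (adjusted p = 2.74e-12). On Srebf1, Scd1 had the smaller slope without Y chromosome counts, 0.10 ± 0.03, and the larger one with them, 0.30 ± 0.03. Per 100 mouse numbers or library numbers, the orders that the labels give, 0 of 10 members were called by edgeR, where 24% of 18380 genes were called for mouse number and 0.272% for library number, and at an unadjusted p under 0.05 6717 and 1634 genes were. With limma, Acaca (slope -0.10, adjusted p = 0.043) and Scd2 (0.08, adjusted p = 0.013) were called for mouse number.

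Fat tissue can also hold thermogenic adipocytes, and their markers moved with the members. The summed level of 7 thermogenic markers, among them Ucp1, ran from 33.9 to 6795 CPM (median 115.4 CPM). Its r with the mean of the z-scored members was 0.71 without and 0.36 with Y chromosome counts (0.78 over all libraries), and its r with Mlxipl was 0.79 and 0.25 (0.87 over all). Mice DO330, DO237 and DO222, which had the highest Mlxipl levels, had 6795, 5128 and 3847 CPM of these markers. With a thermogenic score held constant, r of Mlxipl with Fasn went from 0.87 to 0.57, with Acacb from 0.85 to 0.44, with Me1 from 0.74 to 0.39 and with Elovl6 from 0.79 to 0.35, and all remained past the threshold (adjusted permutation p = 1.11e-05). The number of members with a higher r to Mlxipl than to Srebf1 went from 8 to 5.

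The markers of other cell types were summed in the same way. The summed level of the 11 macrophage markers ran from 279.9 to 6034 CPM, with an r of -0.64 and -0.35 inside the clusters, first without Y chromosome counts. The 6 progenitor markers had -0.57 and -0.28, the 5 endothelial markers -0.20 and 0.39, and the adipocyte markers 0.34 and 0.52. Taken singly without Y chromosome counts, Adipoq (-0.22), Cidec (-0.25) and Plin4 (-0.38) had a negative r with the mean of the members. The other adipocyte markers had a positive r there, and all of them did with Y chromosome counts. Of 10 markers of mammary epithelium, 4 (Csn2, Csn3, Wap and Krt5) were not in the table. The summed level of the other 6 ran from 3.29 to 608.9 CPM, with an r of -0.34 and -0.32. Among these 6, Krt8 alone averaged 10 CPM or more, and whether its transcript came from mammary epithelium was not tested. Inside the clusters the sums of liver markers (2.85 to 6487 CPM) had an r of 0.073 and 0.017, and those of muscle markers (1.59 to 5636 CPM) of -0.21 and -0.12. With the macrophage score held constant, r of Fasn with Mlxipl was 0.80, r with Srebf1 went from 0.52 to 0.37, and r of Scd1 with Mlxipl went from 0.37 to 0.053, where the call was lost (adjusted p = 0.26).

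Genes that supply carbon to the route were the list closest to the members. All 14 carbon supply genes that averaged 10 CPM or more had an r above 0.5 with the mean of the members over all libraries, with a median of 0.86 (0.87 without and 0.68 with Y chromosome counts), against 17.9% of all genes above 0.5. Of the 15 tested, 14 were higher with Srebf1 and 14 with Mlxipl, with 14 and 14 without and 13 and 12 with Y chromosome counts. The shares of all genes that were higher were 29.3% and 37.4% over all libraries, 25.9% and 32.1% without and 23.6% and 22.7% with Y chromosome counts. Pdhb, a subunit of pyruvate dehydrogenase (218.3 ± 174.4 CPM), had an r of 0.92 with the members and a slope on Mlxipl of 0.86 ± 0.01 (0.77 without and 0.21 with Y chromosome counts). Acss2, which makes acetyl-CoA from acetate, had an r of 0.80, and Mdh1, cytosolic malate dehydrogenase, 0.88. The exception in the list was Pklr, the liver form of pyruvate kinase, at 1.93 ± 3.65 CPM, which was lower with Mlxipl over all libraries (slope -0.87 ± 0.16) and not called inside either cluster.

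The NADPH list was mixed. Of its 6 genes 5 were higher with Srebf1, where 29.3% of all genes were. With Mlxipl 5 were higher and 1 lower over all libraries, 5 higher without and 3 higher with Y chromosome counts. The shares of all genes higher with Mlxipl were 37.4%, 32.1% and 22.7%. Tkt, transketolase of the pentose phosphate pathway, had 682.6 ± 645.1 CPM, an r of 0.91 with the members and a slope on Mlxipl of 0.97 ± 0.02 (0.90 without and 0.26 with Y chromosome counts). Taldo1 had an r of 0.90 and G6pdx, the entry enzyme of that pathway, 0.39. H6pd, its counterpart in the endoplasmic reticulum, had an r of -0.11 and was the gene lower with Mlxipl over all libraries (slope -0.07 ± 0.02), while in those with Y chromosome counts it was higher (0.11 ± 0.03).

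Further steps of lipid building showed a range. All 6 genes of mitochondrial fatty acid synthesis were higher with both factors over all libraries and inside both clusters, with a median r to the members of 0.80 (0.74 and 0.54) and values of 0.85 for Cbr4 and 0.80 for Ndufab1. Of 6 triglyceride synthesis genes, 6 were higher with Srebf1 and 5 with Mlxipl over all libraries, 5 and 4 without and 6 and 5 with Y chromosome counts. The shares of all genes that were higher were 29.3% and 37.4% over all libraries, 25.9% and 32.1% without and 23.6% and 22.7% with Y chromosome counts. Agpat2, which makes phosphatidic acid, had a slope of 0.44 ± 0.02 on Srebf1 (0.47 and 0.31 inside the clusters). Dgat2, which adds the last acyl chain, had 0.19 ± 0.03 on Srebf1 (0.25 and 0.16) and -0.01 ± 0.03 on Mlxipl (adjusted p = 0.67), where it was not called inside either cluster. Of the other elongases and desaturases, 4 of 14 were higher and 5 lower with Srebf1, and 7 were higher and 5 lower with Mlxipl. Of all genes 29.3% were higher and 41% lower with Srebf1, so the list was near those shares, and 37.4% and 44% with Mlxipl. Inside the clusters 9 were higher and 2 lower with Mlxipl without Y chromosome counts, and 2 were higher and 3 lower with them. There the shares of all genes were 32.1% and 40.4% without and 22.7% and 29.1% with them. Elovl3, an elongase of brown fat and skin, had the steepest slope on Mlxipl of the genes named, 1.94 ± 0.07, with 1.71 ± 0.10 without and -0.07 ± 0.12 with Y chromosome counts (adjusted p = 0.66 in the latter). Scd3, next to Scd1 and at 2.48 ± 4.64 CPM, had slopes of -0.16 ± 0.03 on Srebf1 and 0.27 ± 0.04 on Mlxipl over all libraries, and neither was called with Y chromosome counts.

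Among acyl-CoA synthetases, 3 of 4 tested were higher and 1 lower with each factor over all libraries. Without Y chromosome counts 3 were higher and 0 lower with each factor, and with them 2 were higher and 2 lower with Srebf1 and 1 and 2 with Mlxipl. The shares of all genes higher with Srebf1 and Mlxipl were 29.3% and 37.4% over all libraries, 25.9% and 32.1% without and 23.6% and 22.7% with Y chromosome counts. With Y chromosome counts 32% and 29.1% of all genes were lower. Acsl1, the main form in adipocytes (2105 ± 782 CPM), had a slope of 0.21 ± 0.02 on Srebf1 (0.17 and 0.18 inside the clusters). Acsl4 had -0.12 ± 0.02, and it was not called without Y chromosome counts (-0.01 ± 0.02, adjusted p = 0.58) and was lower with them (-0.16 ± 0.04, adjusted p = 0.00036). Acsl5 changed direction between the clusters, with a slope on Mlxipl of 0.55 ± 0.03 without Y chromosome counts and of -0.05 ± 0.02 with them (adjusted p = 0.0081).

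The cholesterol genes were called in unequal numbers inside the clusters. Without Y chromosome counts 16 of 18 were higher and 1 lower with Srebf1, and 13 were higher and 2 lower with Mlxipl. There 25.9% and 32.1% of all genes were higher. With Y chromosome counts 5 were higher and 2 lower with Srebf1, where 23.6% of all genes were higher, and 2 were higher and 3 lower with Mlxipl, where 22.7% were. Fdft1, squalene synthase, was higher with Srebf1 in both clusters (slopes 0.22 and 0.14), whereas Mvd was called without Y chromosome counts (0.39 ± 0.04) and not with them (0.04 ± 0.04, adjusted p = 0.40). The difference between clusters was not tested for these genes.

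Of 15 regulators of the route, 11 were higher and 4 lower with each factor over all libraries, and the median r to the members was 0.37. Without Y chromosome counts 10 were higher and 2 lower with Srebf1 and 11 and 1 with Mlxipl, and with them 10 and 3, and 8 and 2. The shares of all genes higher with Srebf1 and Mlxipl were 29.3% and 37.4% over all libraries, 25.9% and 32.1% without and 23.6% and 22.7% with Y chromosome counts. Insig1, which retains SREBP in the endoplasmic reticulum and is itself an SREBP target, had 473.8 ± 197.7 CPM and a slope on Srebf1 of 0.28 ± 0.03, with 0.33 without and 0.18 with Y chromosome counts. Insig2 had -0.06 ± 0.01 over all libraries, and its direction turned between the clusters, at -0.14 ± 0.02 without (adjusted p = 8.45e-15) and 0.07 ± 0.02 with Y chromosome counts (adjusted p = 0.00018). Cebpa, a factor of adipocyte differentiation, had 0.22 ± 0.01 (0.20 and 0.21 inside the clusters), and Mlxip, the paralogue of Mlxipl, had -0.07 ± 0.01 (-0.07 and -0.05). Of 4 genes known to respond to glucose, 2 were higher and 2 lower with Mlxipl, where 37.4% of all genes were higher and 44% lower. Txnip, a strong target of ChREBP and its paralogue, was higher (0.16 ± 0.02, with 0.12 and 0.11 inside the clusters) and Khk, fructokinase, was too (0.13 ± 0.02, with 0.23 and 0.14). Arrdc4 was lower (-0.07 ± 0.01, with -0.13 and -0.07), as was Pklr over all libraries.

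**Figure D5:**
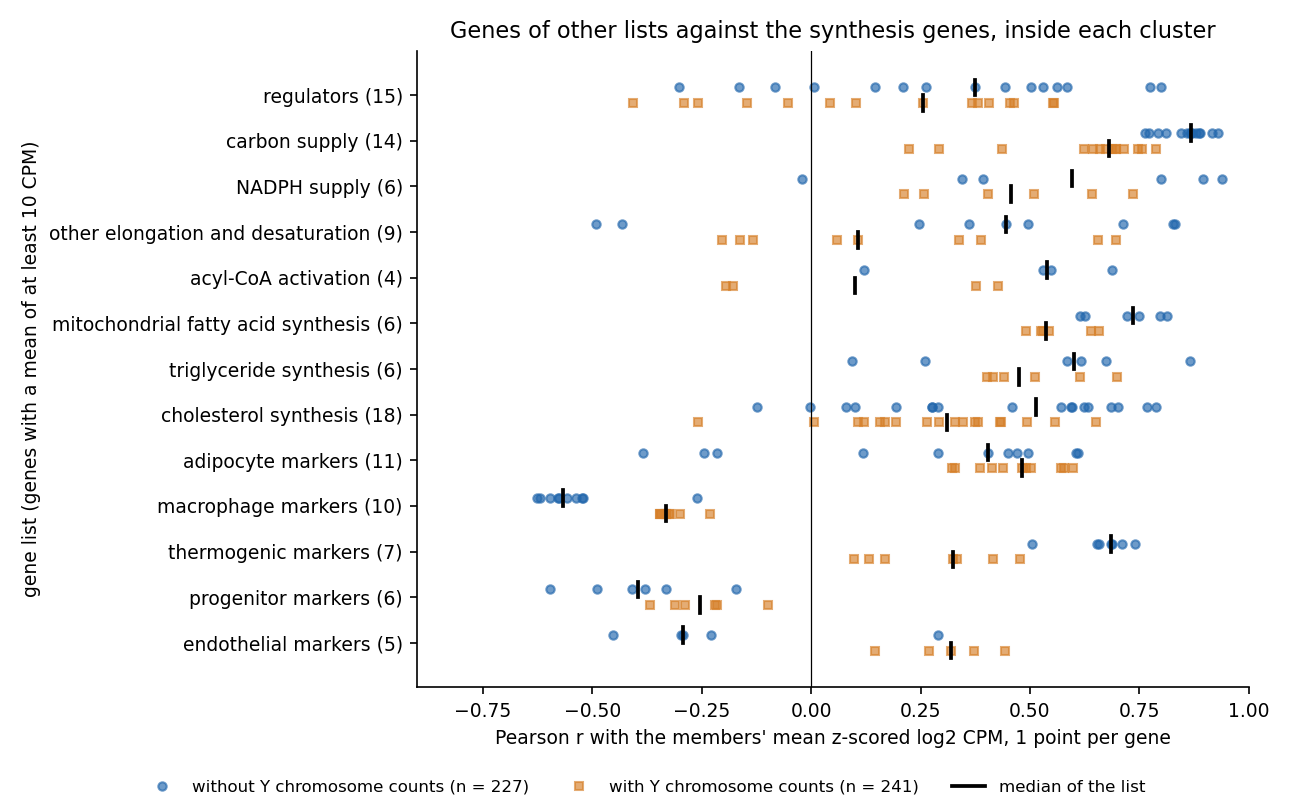
Each point is 1 gene outside the members, placed on the horizontal axis by its Pearson r with the mean z-scored log2 CPM of the 10 members and in rows by list, in libraries without (blue circles) and with (orange squares) Y chromosome counts, and black bars mark the median of a list. The carbon supply list has medians of 0.87 and 0.68, and the macrophage list of -0.57 and -0.33.

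The genes most like the mean of the members were sought among those with at least 10 CPM. Gbe1, the branching enzyme of glycogen synthesis, came first with an r of 0.93 (0.93 without and 0.80 with Y chromosome counts), followed by Pdhb (0.92), Tkt (0.91), Mpc1, a subunit of the mitochondrial pyruvate carrier (0.91), and Cs, citrate synthase (0.90). Mtch2, Dlat and Taldo1 completed the first 8, each with an r of 0.90. At the other end were Mical1 (-0.77) and Actn1 (-0.77), which act on the actin cytoskeleton, Cd9 (-0.77), a tetraspanin, and Sfxn3 (-0.76). The median over all genes was 0.037 and the 95th percentile 0.75. In the same ranking Mlxipl had an r of 0.86, with 0.295% of 9498 genes above it, and Srebf1 of 0.59, with 13.2% above it. In the libraries with Y chromosome counts that order turned, with 9.96% of genes above Mlxipl (0.44) and 1.40% above Srebf1 (0.62).

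The members had different closest genes. Tkt was closest to Acly (0.91), Acaca (0.95), Fasn (0.94) and Thrsp (0.86). Sdha, a subunit of complex II, was closest to Acacb (0.93, with 0.94 and 0.82 inside the clusters), and Pkm, the muscle form of pyruvate kinase, to Elovl6 (0.85, with 0.84 and 0.54). Slc25a1, the carrier that exports citrate from mitochondria, was closest to Me1 (0.87, with 0.86 and 0.78). Echdc1 was closest to Elovl5 (0.78, with 0.81 and 0.48). Lipe, hormone-sensitive lipase and one of the adipocyte markers, was closest to Scd1 (0.80, with 0.63 and 0.87).

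Single mice show how far the members can part. Mouse DO237 was highest or next to highest in Acly, Acaca, Acacb, Fasn, Elovl6, Me1 and Thrsp, and had rank 38 in Scd1 (111618 CPM), while its Scd2 level, 1581 CPM, was above the median of 1420.2 CPM. Mouse DO168 had the lowest Scd2 level of all, 97.5 CPM, beside 90946 CPM of Scd1 and 6977 CPM of Fasn, both above the median of all libraries. In its own cluster, without Y chromosome counts, the median was 84826 CPM for Scd1 and 14223 CPM for Fasn, so its Fasn lay below that median. Mouse DO293, first in Scd1, had 543.6 CPM of Scd2, below the median, and rank 62 in Fasn over all libraries. Its library had Y chromosome counts, and inside that cluster its Fasn level, 20432 CPM, was the highest. Mouse DO283 had the lowest Scd1, Elovl5 and Me1 and the lowest total count, and its adipocyte markers, at 13147 CPM, lay near the lower end of their range. Without that mouse 39 pairs were positive and 4 negative, and without mice DO153, DO347, DO360 and DO405 the counts were 39 and 2. Without either, 10 members had a positive r with Srebf1 and 9 with Mlxipl past the threshold, the same counts as over all libraries.

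Library measures moved with the members as follows. The log10 of the total count had an r of 0.020 with the mean of the members, and mouse number and library number of -0.053 and -0.041. The log2 of the TMM factor had an r of -0.82 with the mean of the members, -0.78 with Fasn and -0.59 with Scd1, and its part in the relations was not tested as such. Without TMM scaling, r of Srebf1 with Fasn was 0.26 in place of 0.52, with Acly 0.26 in place of 0.50 and with Elovl6 0.093 in place of 0.34, and all members remained past the threshold. For Mlxipl the same change took Fasn from 0.87 to 0.83 and Scd1 from 0.37 to 0.11.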

How the data were processed

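Adipose RNA was sequenced in 1 library per mouse. The authors aligned both reads of a pair as single ends to a transcriptome built from the founder genomes and deposited expected counts per gene from EMASE, run by GBRS, after they removed transcripts with few reads. Reads shared by alleles or related genes were split by estimation, and 66.8% of the deposited expected counts were whole within 1e-06. A second deposited table holds variance stabilised values on a log2 scale, made by the authors (their processing notes name DESeq2), and was used as an alternative. The methods of the study also describe a regression on batch, with sex and generation as further terms, and do not say in which deposited table it was applied. Genome build GRCm38 stands in the submitters' processing notes, with tool versions not given in the sources used here. No deposited per-sample column was left unused.

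Genes with 10 counts or more in at least 0.5 of all libraries were kept. Counts were scaled by TMM in edgeR 4.0.16 (R 4.3.3), and log2 CPM used a prior count of 2. For fits, expected counts were rounded to whole numbers and fitted by the edgeR quasi-likelihood test on a standardised covariate. For fits inside a cluster the factor was standardised again over the libraries of that cluster. DESeq2 1.42.0 and limma 3.58.1 served as alternatives. Pearson and Spearman correlations had two-sided permutation tests with 100000 resamples (scipy 1.17.1, numpy 2.4.6) and Benjamini-Hochberg adjustment over the 45 pairs, the 20 relations to the factors or the 65 differences between clusters, with a threshold of 0.05. Partial correlations held a marker score, the other factor, or Xist and the Y chromosome genes constant. The fitting and permutation steps were tested on simulated data with known answers.

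Outside the members, the text names the 8 genes of highest and the 4 of lowest r with the mean of the z-scored members, the closest gene to each member (both among genes of at least 10 CPM), and the 2 genes of highest and the 2 of lowest slope on Srebf1 from each pathway list, or all genes of a list with under 5 tested. A gene that this rule names is not reported here. The members and lists were chosen with earlier results of these data known. The clusters by Y chromosome counts were read from the data and stand for no label, and the tests between them, the fits inside them, the thermogenic score and the fits without single mice were chosen after seeing the data. P-values cover the spread between these libraries. Counts in each library were high enough that no member needed a detection limit.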

Additional observations from a re-analysis of the deposited data

Results flagged for a closer look

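The relation of several members to Srebf1 differed between the libraries without and with Y chromosome counts, by a two-sided permutation test of the difference in r adjusted over 65 differences. The difference, without minus with, was 0.21 for Acly, 0.44 for Elovl6 and 0.21 for Me1, and -0.28 for Scd1, which followed Srebf1 more closely in the libraries with Y chromosome counts.

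For Mlxipl the difference in r passed for 8 members, each with the higher r in the libraries without Y chromosome counts. It was 0.81 for Elovl6, 0.59 for Elovl5, 0.54 for Acly, 0.53 for Me1, 0.46 for Fasn, 0.37 for Acacb, 0.35 for Acaca and 0.33 for Thrsp. The SD of log2 CPM of Mlxipl was 0.86 in the first cluster and 0.42 in the second, and the part of this spread in the differences was not tested. For either factor, the share of all genes that pass this test of a difference was not computed.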

How the results depend on the processing

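Of the counts that answer a comparison, 79.2% of values under an alternative stayed within 1.5 times the main count and 20.8% did not. Of values for single genes or pairs, 92.8% kept direction and side of the threshold, 54 lost the call, 8 gained one and 15 changed sign. The cause was not tested for any of these. Blocks of library or mouse number hold fewer libraries.

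The number of negative member pairs, 2 over all libraries, was 4 with DESeq2 size factors, with the deposited log2 values, without the tenth of libraries of lowest total and without mouse DO283, and 5 without TMM scaling. It was 1 given Xist and the Y chromosome genes, the adipocyte score or the thermogenic score and in the libraries with Y chromosome counts, and 0 given the macrophage score and in the libraries without Y chromosome counts. It was 1, 0 and 1 in library number blocks 1, 2 and 3, and 0, 1 and 1 in mouse number blocks 1, 3 and 5. The number of members with a higher r to Mlxipl, 8 over all, was 0 with Y chromosome counts and 5 given the thermogenic score. The number with a higher r to Srebf1, 2 over all, was 1 given the adipocyte score, 1 without and 4 with Y chromosome counts, 1 in each of the 5 library number blocks and in mouse number blocks 1 and 5, and 0 in mouse number block 4.

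The r of Acaca and Scd2, -0.18 over all, was 0.046 given Xist and the Y chromosome genes, 0.051 given the macrophage score, 0.050 given the thermogenic score, 0.056 without and 0.014 with Y chromosome counts. The r of Scd2 and Mlxipl, -0.19 over all, was 0.055, 0.015, 0.056 and 0.10 under the first 4 of these. The r of Fasn and Scd2 was -0.11 without TMM scaling. The r of Elovl6 and Srebf1 was -0.16 given Mlxipl, and its slope was -0.13 with both factors in the fit. The slope of Scd2 on Mlxipl was 0.059 given Xist and the Y chromosome genes and 0.071 without Y chromosome counts, and that of Elovl6 was -0.021 with them. Genes associated with Mlxipl were 81.4% of those tested over all libraries and 51.7% with Y chromosome counts. Those associated with mouse number were 24% of those tested and 12.4% given Xist and the Y chromosome genes. Those associated with library number, 0.272% by edgeR, were 0% by limma (998 genes at an unadjusted p under 0.05), 0.490% by DESeq2 and 0.578% with no filter. No paired analysis was possible because all libraries form 1 group with 1 library per mouse.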
